A study of Gallus gallus with 51 samples.

Results

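Basic helix-loop-helix (bHLH) factors are transcription factors that pair through a helix-loop-helix and, mostly, bind E-box or related DNA motifs through the basic stretch beside it. In the inner ear the proneural member ATOH1 starts the hair cell program, while HES and HEY proteins, many of them targets of Notch signaling, repress proneural genes in supporting cells. ID proteins have the helix-loop-helix but no basic stretch, so they hold E proteins in pairs that cannot bind DNA, and many ID genes respond to BMP signaling. The probes described here were those whose gene name on the array began with HES, HEY, HRY, ATOH, NEUROG, NEUROD, HAND, MYF, MYC, USF, SREBF, TFE, AHR, NPAS or another bHLH family name, or equalled a single name such as ID1, MAX or TCF3. These names matched 54 of 1509 gene probes, of which 52 stood for helix-loop-helix proteins. The other 2, HESX1 (a homeobox factor) and MYCBP (a MYC binding protein), matched by name only and were kept in all counts. HRY is the older name of HES1. The probe sequences were not used here, so none is shown.

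The tissue was the sensory epithelium of the cochlea of White Leghorn chicks, which holds hair cells and the supporting cells around them. Cochleae were cultured for 24 hr with neomycin, an aminoglycoside that kills hair cells, and epithelia were collected at the end of the treatment (0 hr) or after 24 hr or 48 hr in medium without it. The control for each was cochlea kept as long under the same conditions without neomycin, and each biological sample pooled the epithelia of several treated and several control cochleae. The RNA was amplified over repeated rounds and hybridised to 50-mer probes made to human genes, so a chicken transcript was read through a human sequence. There were 51 two-colour arrays, 17 at 0 hr, 16 at 24 hr and 18 at 48 hr, and each time point had 3 biological replicates. On an array, neomycin RNA was set against time-matched control RNA. The suffix 3 of a label marked neomycin RNA in Cy3 and the suffix 5 neomycin RNA in Cy5. A positive log2 ratio below means more signal from neomycin RNA, and a replicate value is the mean of its suffix 3 and suffix 5 arrays. Specimens were cultured singly before pooling, and the p-values measure the spread between these pools.

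Several arrays limited what could be read. The share of spots that did not exceed their local background varied by array from 0% to 81.5% for Cy3 and from 0.0977% to 89.0% for Cy5. It was over 50% in at least 1 dye on 13 arrays, which were all 7 arrays of 0 hr replicate 1 and 6 of the 8 arrays of 24 hr replicate 1. Array 2 of suffix 5 in 0 hr replicate 3 ran against the other arrays of its replicate, with Pearson r of -0.64, -0.26 and -0.28 across the 1282 tested probes. Its label and header gave no other direction, so the 0 hr means of named probes that it moved most are also given without it. Other replicates also disagreed in part. On the arrays of 0 hr replicate 1 the lowest r with another array of the replicate ran from -0.417 to -0.0413. It was -0.281 on suffix 5 array 1 of 48 hr replicate 2. Each of these arrays also had a positive r with another array of its replicate. Names were those of the array's design, and 44 of the 54 equalled a chicken gene symbol or synonym in the GRCg7b annotation. HES2, HES7 and HRY were among the 10 that did not.

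Signal was read first, because most of these probes were dim. The limit used below was the 95th percentile of signal over negative-control spots, taken for each array and dye. This limit could lie far above most spots. In 24 hr replicate 1 it was 9451, 19190 and 13710 for control RNA on suffix 5 arrays 1, 2 and 3. The median spot signals there were 1654, 1640 and 1222. On suffix 5 arrays 4 and 5 it was 1532 and 1998, beside medians of 1156 and 1423. Detected means that 80% or more of a time point's array-channels exceeded that limit. In this bulk tissue fewer cells of a type and less RNA per cell cannot be told apart. By this measure 5 of 54 bHLH probes were detected at 0 hr, where 4.77% of all gene probes were, 2 of 54 at 24 hr (1.72% of all) and 5 of 54 at 48 hr (3.84% of all). The 5 at 0 hr were HES2, HES7, ID1, MAX and TAL2. The 2 at 24 hr were HES7 and MAX, and those at 48 hr were HES2, HES7, HEY2, ID1 and TAL2. HES7 was the only 1 of the 54 detected at all 3 time points, where 0.663% of all gene probes were.

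Among the HES probes, HES7, known in mouse as an oscillating Notch target of the segmentation clock, was above the limit in most array-channels. Its neomycin signal at 0 hr was 4.08, 1.93 and 7.05 times the limit in replicates 1, 2 and 3, and its control signal 5.65, 1.88 and 5.03 times. At 24 hr the neomycin signal was 3.76, 0.965 and 3.95 times the limit and the control signal 1.86, 2.73 and 3.50 times. At 48 hr both lay between 2.30 and 4.13 times the limit in every replicate. The only median under the limit was that of the neomycin RNA of 24 hr replicate 2, beside a control RNA above it. HES2, a related repressor, was above the limit on 17 of 17 neomycin and 15 of 17 control channels at 0 hr, on 7 and 10 of 16 at 24 hr and on 17 and 16 of 18 at 48 hr. In 24 hr replicate 1 its signal was 0.734 times the limit in neomycin and 0.193 times in control RNA. The limit for control RNA was itself high on some arrays of that replicate, as given above.

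The HEY probes stand for repressors that can act downstream of Notch, as known from mouse. HEY2 was above the limit on 14 of 18 neomycin and 16 of 18 control channels at 48 hr, but on 8 and 7 of 17 at 0 hr and 8 and 7 of 16 at 24 hr. HEY1 was above it on 9 and 14 of 18 at 48 hr and on only 1 and 3 of 16 at 24 hr. HEYL was above the limit on no array of the replicates numbered 1, at any time point, although these made up 23 arrays. In the other replicates, with 28 arrays, it exceeded the limit in 22 neomycin and 24 control channels. The HRY probe was above the limit on 1 array in each RNA at 0 hr and on none at 24 hr or 48 hr, so no ratio is given for it.

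Of the ID probes, ID1 was the bright member. It exceeded the limit in both RNAs on all 17 arrays at 0 hr and all 18 at 48 hr, and on 10 of 16 at 24 hr. Its neomycin signal at 0 hr was 1.74, 3.99 and 12.5 times the limit in the 3 replicates, and its control signal 6.37, 4.47 and 8.54 times. At 24 hr the values were 0.486, 2.02 and 8.36 times in neomycin and 0.103, 8.82 and 6.49 times in control RNA. The low pair was 24 hr replicate 1, where 2 of 8 arrays were above the limit in each RNA. Those low values were set against the high limits given above for control RNA on some arrays of that replicate. ID4 was above the limit on 10 of 18 arrays in each RNA at 48 hr, none of them in replicate 1, on 5 neomycin and 6 control channels of 17 at 0 hr and on 6 of 16 in each RNA at 24 hr. ID3 was above it on at most 3 neomycin and 5 control channels at any time point. ID2 never exceeded the limit in either RNA, and no ratio is given for it.

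**Figure D1:**
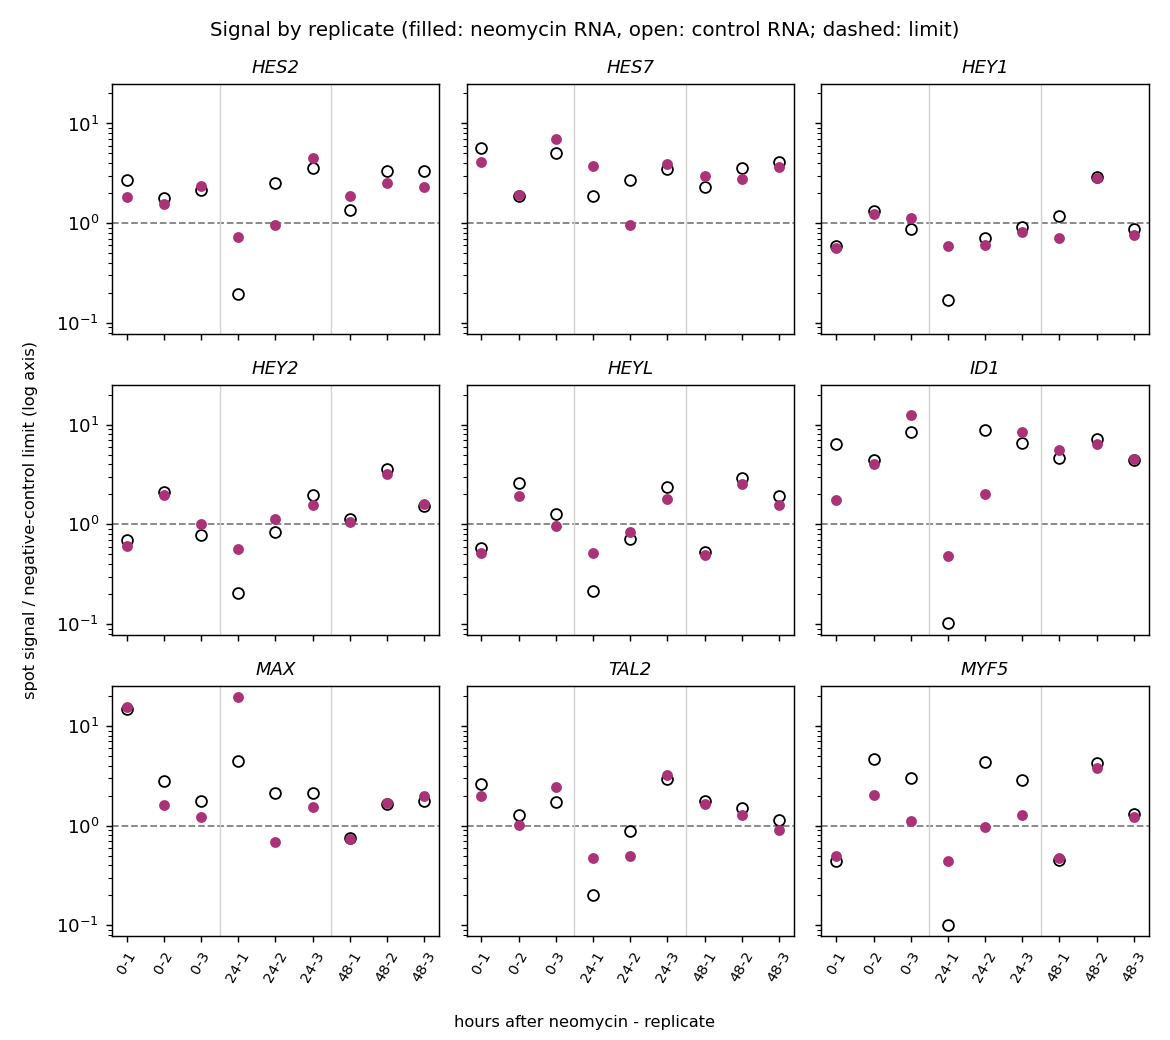
Signal of 9 bHLH probes by replicate, as the median over arrays of the spot signal divided by the negative-control limit of the same array and dye (log axis, limit at the dashed line). Filled points are neomycin RNA and open points control RNA, the x axis gives hours and replicate, and HEYL and MYF5 lie under the limit in the replicates numbered 1 at 0, 24 and 48 hr.

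The neomycin/control ratio was tested for the 48 members that passed a filter on dim probes. The 6 that did not were HRY, ID2, MXI1, NEUROD4, SIM1 and USF2. None of the 48 passed an adjusted p under 0.05 in limma at any time point, in any of the 3 differences between time points or in the F test over the 3 time points, and over all 1282 tested probes the share that passed was 0% in each of the 7. An unadjusted p under 0.05 was reached by 1 member at 0 hr (HEYL; 2.96% of all probes), 2 at 24 hr (8.35%) and 2 at 48 hr (4.68%). It was reached by 1 member in the difference of 24 hr and 0 hr (1.33%), 1 in that of 48 hr and 24 hr (3.98%), none in that of 48 hr and 0 hr (1.48%) and none in the F test (3.74%). Without the contrary array the 0 hr count was 2 (HEYL and NEUROD6), and 4.76% of all probes. On these 9 values a one-sample test of each probe alone, with Benjamini-Hochberg adjustment, also passed 0 members at each time point. In that test 4, 2 and 2 members had an unadjusted p under 0.05, in order of time. Of all tested probes 3.43%, 4.06% and 3.43% did. The paper ran its own test over selected hybridizations and names no such adjustment. That test was not repeated here, and the paper lists MAX and TAL2 (0 hr) and NEUROD6 (24 hr) among its changed genes. The number of replicates, 3 at each time point, limits the precision of every value that follows.

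The HES and ID ratios came next. HES2 ratios at 0 hr were -0.76, 0.45 and 0.03 in replicates 1, 2 and 3 on the log2 scale. At 24 hr they were -0.55, -2.21 and 0.53, and at 48 hr 0.58, -0.42 and -0.34. No time point had one sign throughout, and the means of -0.09 ± 0.62, -0.74 ± 1.38 and -0.06 ± 0.55 (SD, n = 3) were each smaller than their spread. HES7 gave -0.59, 0.15 and 0.43 at 0 hr, 1.15, -2.50 and 0.47 at 24 hr and 0.47, -0.30 and -0.14 at 48 hr. Its means in that order were 0.00 ± 0.53, -0.29 ± 1.94 and 0.01 ± 0.41. The value of HES2 in 24 hr replicate 1 joined suffix means of opposite sign, -2.02 for suffix 3 and 0.92 for suffix 5, whereas for HES7 they were 1.51 and 0.79.

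HEY1 means were -0.19 ± 0.27, -0.15 ± 0.38 and 0.01 ± 0.65 at 0, 24 and 48 hr, with adjusted p-values of 0.999, 0.915 and 0.997. HEY2, which was detected at 48 hr, had replicate values of -0.06, -0.00 and 0.03 there, with an SD of 0.04, the smallest of the HES and HEY probes at any time point. At 24 hr HEY2 was at 0.27, 0.60 and -0.06, and at 0 hr at -0.42, 0.29 and 0.34. HEYL was the only member of the repressors with an unadjusted p under 0.05, at 0 hr, where its values were -0.17, -0.21 and -1.31. The mean was -0.56 with a limma SE of 0.22, or 1.48-fold less signal in neomycin RNA, and the adjusted p was 0.999. All 3 replicates and both suffix means of each lay below 0. Replicate 1 was under the limit on every array, and without replicate 3 the mean fell to -0.19. Without the contrary array of replicate 3, which read 1.68 where the other 3 arrays of the replicate were below 0, that replicate's value became -1.94 and the mean -0.77 (adjusted p = 0.996).

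ID1 had the widest range of the ID probes. Its ratios were -1.60, 0.42 and 0.24 at 0 hr, -0.13, -2.84 and 0.41 at 24 hr and 0.70, -0.14 and 0.05 at 48 hr. Replicate 1 was the low one at 0 hr and replicate 2 at 24 hr, and the other replicates of those time points lay between -0.13 and 0.42. The means of -0.31 ± 1.12, -0.86 ± 1.74 and 0.20 ± 0.44 had adjusted p-values of 0.999, 0.733 and 0.940. In 0 hr replicate 1 the suffix means were -2.54 and -0.65, so the size of the ID1 value there differed by dye orientation while the sign did not.

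ID4 was below 0 in all 3 replicates and both suffix means of each at 48 hr, with values of -0.72, -0.06 and -0.12, of which the lowest was replicate 1, where neither RNA exceeded the limit. Its mean of -0.30 ± 0.37 had an adjusted p of 0.780, and without 48 hr replicate 1 it was -0.09. At 24 hr ID4 was at -0.21, -0.88 and -0.05. ID3, which was rarely above the limit, had means of -0.19, -0.14 and -0.14 at the 3 time points with SDs between 0.16 and 0.54. Without the contrary array ID3 in 0 hr replicate 3 went from -0.02 to -0.32 and its 0 hr mean to -0.29.

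**Figure D2:**
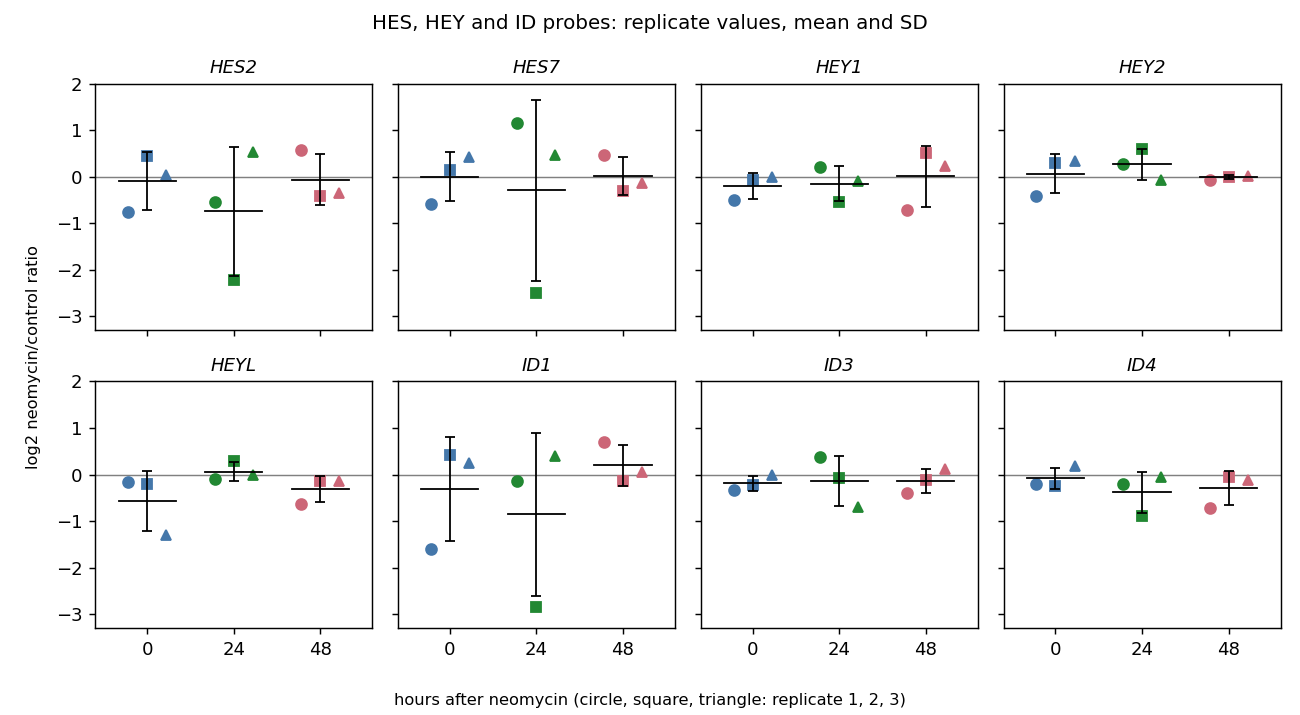
Log2 neomycin/control ratio of the 8 tested HES, HEY and ID probes at 0, 24 and 48 hr. Circles, squares and triangles are replicates 1, 2 and 3, and bars give the mean and SD (n = 3); HES2, HES7 and ID1 have their lowest value in 24 hr replicate 2.

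The 24 hr time point held the largest values. In 24 hr replicate 2, 6 of 48 members were past 2-fold either way, all lower in neomycin RNA. Over all tested probes 7.64% were past 2-fold either way, 92 of them lower and 6 higher. The 6 members were HES2, HES7, ID1, MAX, TAL2 and MYF5. Each was below 0 on all 4 arrays of the replicate and in both dye orientations. HES2 ran from -2.88 to -1.36 over these arrays and HES7 from -3.26 to -1.69. ID1 ran from -4.24 to -1.45 and MAX from -3.82 to -1.79, while MYF5 ran from -4.12 to -1.92 and TAL2 from -2.49 to -0.62. The arrays of the replicate thus shared one direction. In 24 hr replicate 1 the probes were at -0.55 (HES2), 1.15 (HES7), -0.13 (ID1), 2.40 (MAX), -0.14 (TAL2) and 0.07 (MYF5). In 24 hr replicate 3 the same probes were at 0.53 (HES2), 0.47 (HES7), 0.41 (ID1), -0.10 (MAX) and 0.31 (TAL2), and MYF5 at -1.26.

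The same comparison in the other replicates gave few members past 2-fold. At 0 hr they numbered 1 in replicate 1 (ID1; 0.780% of all tested probes), 0 in replicate 2 (3.20%) and 3 in replicate 3 (HEYL, MYF5 and NEUROD6; 2.73%). At 24 hr there were 3 in replicate 1 (HES7 and MAX higher, MYCL2 lower; 3.51%) and 1 in replicate 3 (MYF5; 1.17%). At 48 hr there were 3 in replicate 1 (TCF12 higher, NEUROD6 and NEUROG1 lower; 7.88%), 0 in replicate 2 (0.624%) and 0 in replicate 3 (0.234%). For 14 of the 48 members the SD between replicates exceeded the SD between arrays of the same replicate and suffix, and MAX, HES7, HES2, ID1 and TAL2 had the 5 largest ratios of these SDs, from 1.78 to 3.17. Over all tested probes the between-replicate SD was the larger for 22.2%. A replicate value is a mean over several arrays, which narrows the between-replicate SD, while the other SD is that of single arrays. These counts therefore cannot show whether biological replicates differ more or less than arrays of the same replicate.

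**Figure D3:**
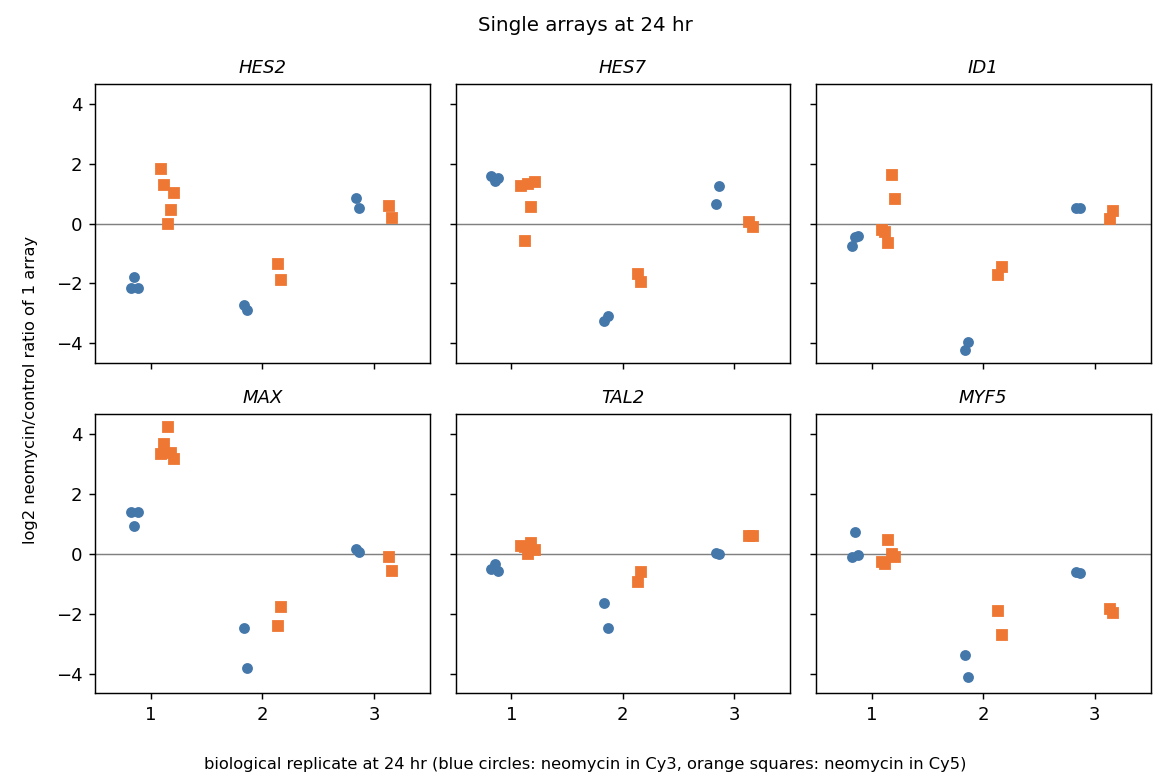
Log2 neomycin/control ratio on each of the 16 arrays at 24 hr for the 6 probes past 2-fold in replicate 2, by biological replicate (x axis). Blue circles are arrays with neomycin RNA in Cy3 and orange squares arrays with it in Cy5; every array of replicate 2 lies below 0, and MAX lies above 0 on all 8 arrays of replicate 1.

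MAX, the shared partner of the MYC and MAD proteins, was read far above the limit in a pair of replicates. Its neomycin signal was 15.4 times the limit in 0 hr replicate 1 and 19.3 times in 24 hr replicate 1, against 0.688 to 1.98 times in the other 7 replicates. The ratio in 24 hr replicate 1 was 2.40, with all 8 arrays above 0, and in replicates 2 and 3 of that time point -2.62 and -0.10. The scanner was saturated there, with a MAX spot at 65000 or more in neomycin RNA on 3 arrays and in control RNA on 2, and the suffix means were 1.24 and 3.56. At 0 hr MAX was at -0.10, -0.67 and -0.68, below 0 in every replicate and suffix mean, averaging -0.48 ± 0.33 (adjusted p = 0.999), or -0.61 without the contrary array. At 48 hr it was at 0.07, 0.15 and 0.20.

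The count of members with one sign in all 3 replicates and all 6 suffix means was 2 at 0 hr (HEYL and MAX), where 2.50% of all tested probes had it. At 24 hr it was 2 (NEUROD6 and MYC; 6.79% of all) and at 48 hr 3 (ID4, NPAS2 and ARNT; 4.21% of all). All 7 were lower in neomycin RNA. Of all tested probes with one sign throughout, 20 were lower and 12 higher at 0 hr. At 24 hr these counts were 56 and 31, and at 48 hr 30 and 24. MYC, the proliferation-linked factor that pairs with MAX, was at -0.39, -0.29 and -0.12 at 24 hr with a mean of -0.27 ± 0.13 (adjusted p = 0.778). It exceeded the limit on 6 neomycin and 7 control channels of 16.

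The remaining members of the MYC network were MAD, which opposes MYC at shared sites, MYCL1, MYCL2, MYCN and MXI1. MAD exceeded the limit on 9 neomycin and 7 control channels at 0 hr and on none at 24 hr or 48 hr. Its 0 hr values were 0.10, -0.03 and -0.14. Whether above the limit or not, the 6 tested members of the network had a median ratio of -0.06 at 0 hr, -0.16 at 24 hr and -0.07 at 48 hr, and 1 of 6, 1 of 6 and 3 of 6 had a mean above 0.

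Proneural factors gave little signal. ATOH1, the factor that starts hair cell formation, exceeded the limit on 2 neomycin and 2 control channels of 17 at 0 hr, 2 and 1 of 16 at 24 hr and 4 and 5 of 18 at 48 hr. Its ratios were 0.01, -0.10 and -0.05 at 0 hr, -0.19, 0.34 and 0.13 at 24 hr and 0.31, -0.14 and -0.16 at 48 hr. The means of -0.05 ± 0.06, 0.09 ± 0.27 and 0.00 ± 0.27 did not stand apart from 0, with an adjusted p of 0.915 or more. A change in ATOH1 was not detectable at this signal. NEUROG1, which specifies cochlear ganglion neurons, was at 0.09 ± 0.30, 0.06 ± 0.51 and -0.52 ± 0.66, and its 48 hr mean rested on replicate 1 at -1.25. NEUROG2 stayed between -0.48 and 0.18 in every replicate, NEUROD1 between -0.66 and 0.23, and NEUROD4 never exceeded the limit.

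NEUROD6, a neuronal differentiation factor, was the 1 proneural member with an unadjusted p under 0.05. At 24 hr it was at -0.93, -0.67 and -0.50, averaging -0.70 ± 0.21 (adjusted p = 0.588). Its signal exceeded the limit on only 1 neomycin and 3 control channels of 16 at that time point, and in replicate 2 on none, so no fold is given. At 0 hr it was at 0.03, -0.79 and -1.05, and at 48 hr at -1.52, 0.31 and 0.00. NEUROD6 was 6.68 times the limit in neomycin and 6.54 times in control RNA in 0 hr replicate 1, and at or under 1.08 times in either RNA of every other replicate. The 0 hr mean of -0.60 became -0.77 without the contrary array (adjusted p = 0.996).

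MYF5, known as a myogenic determination factor, gave the largest mean ratio of any member. At 24 hr its values were 0.07, -3.03 and -1.26, with a mean of -1.41 (limma SE 0.49), or 2.65-fold less signal in neomycin RNA, and an adjusted p of 0.588. Without 24 hr replicate 2 the mean was -0.59. At 0 hr the values were 0.28, -0.91 and -1.69 and at 48 hr -0.77, -0.02 and -0.04. In the replicates numbered 1 it exceeded the limit on none of 23 arrays in either RNA, and in the others on 24 of 28 in neomycin and 27 of 28 in control RNA. Replicates 2 and 3 were read well above the limit in control RNA, at 4.71 and 3.00 times at 0 hr and 4.35 and 2.88 times at 24 hr, where neomycin RNA was at 2.02 and 1.12 times and at 0.966 and 1.28 times. At 48 hr control RNA was at 4.27 and 1.32 times and neomycin RNA at 3.82 and 1.21 times. The 0 hr mean of -0.78 ± 0.99 was -1.10 without the contrary array (adjusted p = 0.996). The other myogenic probes were dimmer: MYOD1 exceeded the limit on at most 2 channels of an RNA and time point, MYOG on at most 6 and MYF6 on at most 9, and their means lay between -0.13 and 0.27.

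Signal in the replicates numbered 1 differed for other members too. Of the 54 probes, 4 (HEYL, HIF1A, MYF5 and TCF3) were above the limit on no array of these replicates and in 50% or more of the array-channels of the rest, and 6.23% of all gene probes were. The 4 were singled out after their values were seen. These replicates held the 13 arrays with most spots at or below local background, all of them at 0 hr and 24 hr, and the part of that in the pattern was not tested. In 48 hr replicate 1, which held none of these arrays, MYF5 and HEYL were also under the limit. The limit there was far above most spots. On suffix 3 array 1 it was 3381 for Cy3 and 5997 for Cy5, beside median spot signals of 1564 and 1489. On suffix 3 array 1 of 48 hr replicate 2 it was 2088 and 2780, beside 1834 and 2306. The part of the limit in the pattern was not tested.

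**Figure D4:**
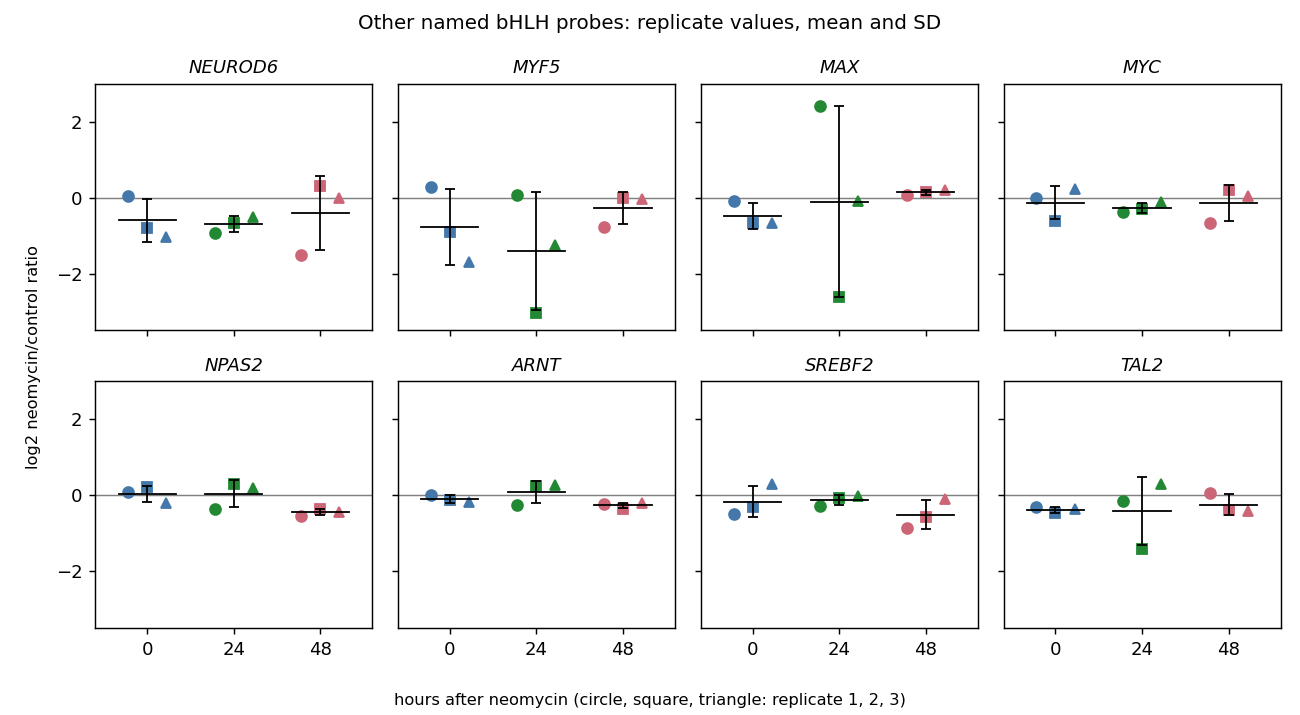
Log2 neomycin/control ratio of 8 other named bHLH probes at 0, 24 and 48 hr, with circles, squares and triangles for replicates 1, 2 and 3 and bars for the mean and SD (n = 3). NPAS2, ARNT, SREBF2 and MYF5 lie below 0 in all 3 replicates at 48 hr, NEUROD6, MYC and SREBF2 at 24 hr, and MAX and TAL2 at 0 hr.

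PAS-domain members include factors that respond to oxygen, ligands or time of day. NPAS2, a relative of the circadian factor CLOCK, was at -0.53, -0.36 and -0.43 at 48 hr, with a mean of -0.44 ± 0.09, an unadjusted p under 0.05 and an adjusted p of 0.780. It was at 0.08, 0.23 and -0.21 at 0 hr and -0.35, 0.29 and 0.20 at 24 hr, and the difference of 48 hr and 24 hr was -0.49 (limma SE 0.22, adjusted p = 0.848). NPAS2 exceeded the limit on 3 neomycin and 4 control channels of 18 at 48 hr, all in replicate 2. ARNT, the common partner of the ligand and oxygen sensors, was at -0.23, -0.35 and -0.21 at 48 hr (adjusted p = 0.780) and exceeded the limit on 1 and 2 channels of 18. At 48 hr 53.3% of all tested probes had a mean below 0. The 8 tested PAS-domain members all did, with a median of -0.13 and ARNT2 the nearest to 0 at -0.0015, against medians of 0.05 at 0 hr and 0.05 at 24 hr, when 5 of 8 were above 0. HIF1A, the oxygen-regulated subunit, exceeded the limit on 9 of 18 channels of each RNA at 48 hr, with values of -0.21, 0.20 and -0.20. The others were AHR, ARNT2, EPAS1, NPAS1, SIM1 and SIM2, of which SIM1 never exceeded the limit.

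The leucine zipper members include the sterol regulators. SREBF2, which activates cholesterol synthesis genes, was at -0.87, -0.57 and -0.10 at 48 hr, with a mean of -0.51 (limma SE 0.18), or 1.42-fold less signal in neomycin RNA, an unadjusted p under 0.05 and an adjusted p of 0.780. It exceeded the limit on 10 neomycin and 13 control channels of 18. All 3 replicate values were below 0, but not every suffix mean at 48 hr was. In 48 hr replicate 2, where the signal was 3.26 times the limit in neomycin and 4.79 times in control RNA, all 6 arrays lay below 0. Over all time points, SREBF2 exceeded the limit on only 1 neomycin and 3 control channels of the 23 arrays of replicates numbered 1. Without 48 hr replicate 1, which gave the value of -0.87, the mean was -0.33. TFE3 had an unadjusted p under 0.05 in the difference of 24 hr and 0 hr, but at 24 hr neither of its RNAs exceeded the limit on any array and at 0 hr only neomycin RNA did, on 2 of 17, so no ratio is given. The 7 tested members, with MITF, SREBF1, TFEB, TFEC and USF1, had median ratios of -0.05, -0.11 and -0.26 at 0, 24 and 48 hr, and 3, 1 and 1 of 7 were above 0.

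TCF3, TCF4 and TCF12 were grouped as E proteins, the general partners of tissue-specific bHLH factors. TCF3 is also an older name of TCF7L1, which is no bHLH factor, but the paper's annotation describes TCF3 as E2A, an E protein. The probe sequence was not checked. The median ratios of TCF3, TCF4 and TCF12 at 0, 24 and 48 hr were -0.18, -0.12 and 0.15. TCF3 exceeded the limit on 8 neomycin and 7 control channels of 17 at 0 hr, and TCF12 on no more than 2 channels of an RNA at any time point. Of the mesodermal and blood factors, TAL2 was the bright one. At 0 hr it was at -0.32, -0.47 and -0.35, with a mean of -0.38 ± 0.08 (limma SE 0.26, adjusted p = 0.999). That SE rests on the spread shared by the 3 time points, and the TAL2 SD at 24 hr was 0.90. Without the contrary array the 0 hr mean was -0.46. Suffix means at 0 hr were below 0 except for suffix 5 of replicate 3, at 0.10, which held the contrary array. At 48 hr TAL2 was at 0.07, -0.40 and -0.42. TAL1, LYL1, HAND2 and TCF21 were read mostly under the limit, and TCF21 exceeded it on 8 and 9 of 17 channels at 0 hr with values of 0.18, -0.83 and -0.45.

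Over the 48 tested members, the median ratios at 0, 24 and 48 hr were -0.05, -0.09 and -0.11, beside -0.01, 0.00 and -0.02 over all tested probes. Members with a mean above 0 numbered 17, 18 and 16, or 35.4%, 37.5% and 33.3%, beside 48%, 50.6% and 46.7% of all tested probes. The median at 24 hr was 0.04 without 24 hr replicate 1, so its direction rested on that replicate. By replicate the medians were -0.01, -0.04 and -0.05 at 0 hr, -0.15, -0.01 and 0.08 at 24 hr and -0.25, -0.02 and -0.09 at 48 hr. Suffix means had the same sign in 84 of 144 member-replicate pairs at 0 hr, 90 at 24 hr and 78 at 48 hr, or 58.3%, 62.5% and 54.2%, and 51.7%, 60.4% and 55.1% over all tested probes.

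**Figure D5:**
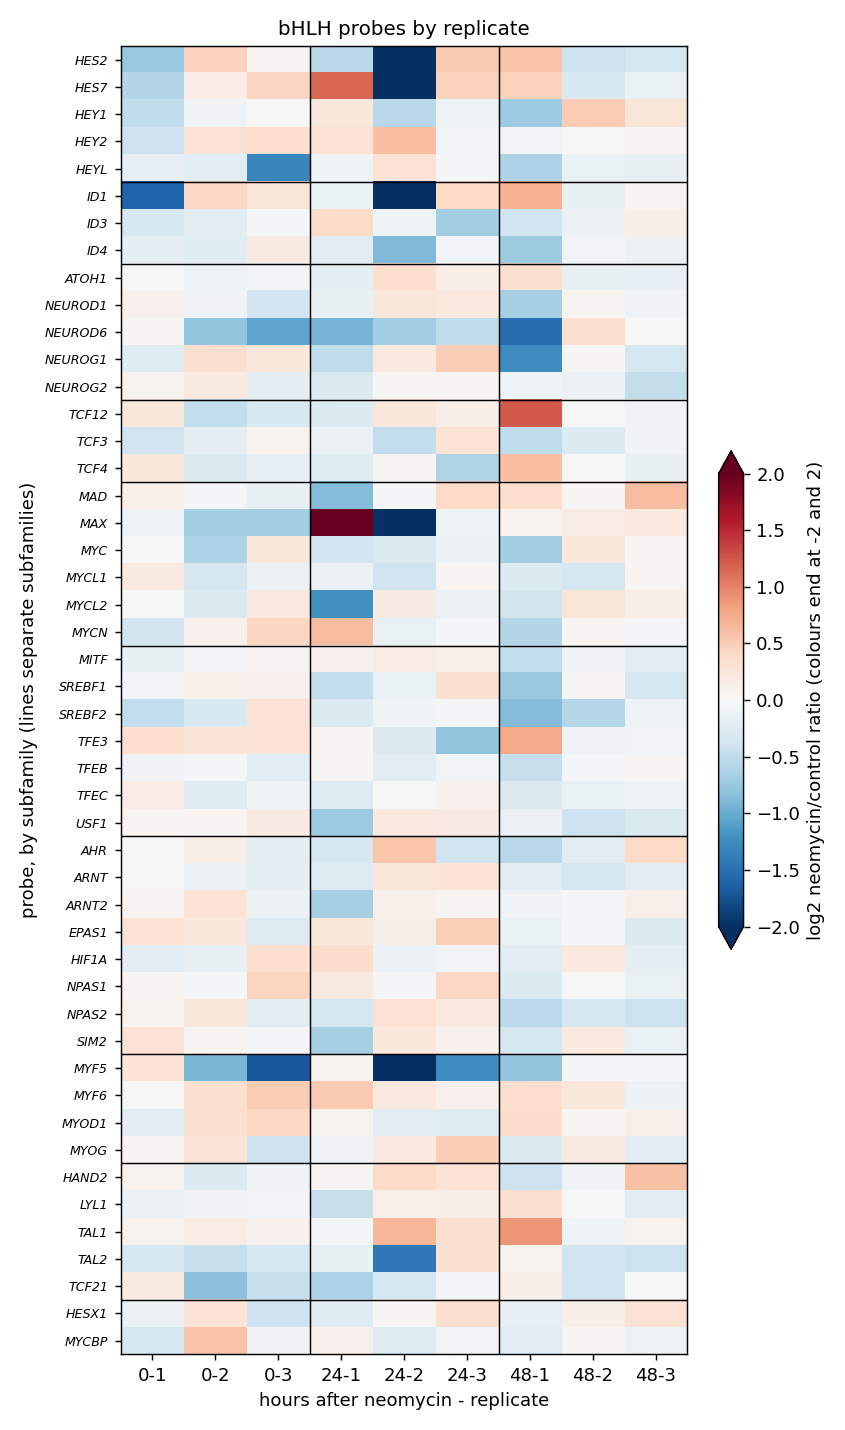
Log2 neomycin/control ratio of the 48 tested bHLH probes (rows, by subfamily) in the 9 biological replicates (columns, hours and replicate), with red for more signal from neomycin RNA and blue for less. The darkest cells are those of HES2, HES7, ID1, MAX and MYF5 in 24 hr replicate 2 and of MAX in 24 hr replicate 1, which is high.

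Genes that work with these factors, and markers of cell types, were counted beside the members. Of all tested probes, 2.96%, 8.35% and 4.68% had an unadjusted p under 0.05, in order of time. Detection was reached by 4.77%, 1.72% and 3.84% of all gene probes, in the same order. No list below was tested against these shares, so a single named gene does not set its list apart. Of 6 Notch and Groucho partners on the array, 1 was detected at 0 hr (FHL1) and none at 24 hr or 48 hr, and an unadjusted p under 0.05 was reached by 1, RBPSUHL, lower at 48 hr. Of 14 other bHLH genes, MNT, a repressor that pairs with MAX, was detected at all 3 time points, and MSC was the 1 of 13 tested with an unadjusted p under 0.05, lower at 0 hr. Of 6 SMAD genes, which carry BMP and TGF-beta signals, none was detected at 80% of channels and none of the 5 tested had an unadjusted p under 0.05. Hair cell markers were faint: none of 4 (ATOH1 among them) was detected at any time point, and POU4F3 reached at most 55.6% of channels. The POU4F3 ratio at 48 hr was the 1 of the 4 with an unadjusted p under 0.05, lower in neomycin RNA. At 48 hr 1 of the 4 had a mean above 0. None of 5 supporting cell markers was detected, although SOX2 reached 78.1% of channels at 24 hr. SOX2 was lower in neomycin RNA there with an unadjusted p under 0.05. Of the 5, 2 had a mean above 0 at 24 hr, and the median of the 5 was -0.07. The stromal marker PMX1 was also lower at 24 hr with an unadjusted p under 0.05. Of the other markers, 0 of 3 stromal, 0 of 6 blood, 0 of 3 melanocyte and 0 of 4 muscle markers were detected at any time point. HEY1 and HEYL were among the supporting cell markers, and the 4 muscle markers were MYOD1, MYOG, MYF5 and MYF6 themselves. Of 3 markers of neurons, only POU4F1 was detected, at 0 hr and 48 hr, and none was at 24 hr. Summed over 4 hair cell markers, the signal per replicate ran from 1.38 to 5.15 times the limit. Over 5 supporting cell markers it ran from 2.84 to 9.52 times, and over the 4 muscle markers from 1.16 to 7.06 times. These sums include markers under the limit and grow with the number of markers, so they cannot compare cell types. The part of cell makeup in the ratios above was not tested.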

How the data were processed

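The deposited scanner files held, for each array, ImaGene intensity values (signal mean and local background) for Cy3 and Cy5, and the deposited log2 values of the matrix equalled the raw neomycin/control intensity ratios on 51 of 51 arrays, without normalisation. The authors spotted each of 1536 probes 2 times. Of these, 19 were negative controls and 8 mismatch probes, leaving 1509 gene probes. In R 4.3.3 with limma 3.58.1, background was corrected by normexp (offset 50), each array was normalised by loess and ratios were oriented to neomycin over control. Arrays were averaged by suffix, then over the 2 suffixes, giving 9 replicate values. The dimmest 15% of gene probes (227) were left out, and limma was fitted to the other 1282 with Benjamini-Hochberg adjustment over all of them. Because of the offset, fold changes of dim probes are understated. The median spot signal of an array lay between 459.7 and 3636 for Cy3, and for Cy5 between 261.5 and 3190. Direction came from the suffix, which matched the neomycin dye named in the header of 51 arrays. Of these headers, 1 named Cy5 for both RNAs, that of 0 hr replicate 3 suffix 5 array 3. The contrary array was of that replicate too. Another 6 headers, all of 24 hr replicate 1, named the other RNA Coch in place of control. Figures were drawn with Python 3.11.15 and matplotlib 3.10.9. Named were all HES, HEY, HRY, ID, ATOH, NEUROG and NEUROD members, those with an unadjusted p under 0.05, those with one sign in all 3 replicates and 6 suffix means, and those detected at any time point (24 genes). The others were summarised by subfamily. The members, lists and naming rule were chosen with earlier results of these data known. Alternatives covered background, normalisation, filters, dye orientation, replicates, blocks and detection limits.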

Additional observations from a re-analysis of the deposited data

Results flagged for a closer look

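For 4 probes all 3 replicates lay on one side of 0 at one time point and all 3 on the other side at another, while limma's test of the difference did not pass. Of all tested probes 73, or 5.69%, had such a pattern, beside 8.33% of the members. EPAS1, an oxygen-regulated factor, went from a mean of 0.27 at 24 hr to -0.15 at 48 hr, a difference of -0.42 (adjusted p = 0.848). It exceeded the negative-control limit on 2 neomycin and 1 control channels of 16 at 24 hr, and on 0 and 1 of 18 at 48 hr. MITF, the melanocyte regulator, went from 0.11 to -0.26 over the same interval, a difference of -0.37 (adjusted p = 0.848), but exceeded that limit on no array at 24 hr. MAX went from -0.48 at 0 hr to 0.14 at 48 hr, a difference of 0.62 (adjusted p = 0.997). USF1, an E-box binding activator, went from 0.09 at 0 hr to -0.27 at 48 hr, a difference of -0.36 (adjusted p = 0.997). USF1 exceeded the limit on 3 neomycin and 3 control channels of 17 at 0 hr, and on 4 and 5 of 18 at 48 hr.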

How the results depend on the processing

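With the 9 replicate values, no alternative passed a member in any of the 7 comparisons, and leaving out each replicate in turn gave from 0 to 0. Fits on single arrays, which count arrays of a replicate as separate observations with a shared correlation of 0.202 by replicate or 0.198 by quantification day, passed some members. When the replicate was the random block, 1 passed at 24 hr (MYF5, adjusted p = 0.0345; 2.89% of all tested probes). With array weights added 2 passed at 0 hr (NEUROD6 and TCF21; 4.06% of all), 1 at 24 hr (MYF5; 2.26%) and 3 in the F test (MYF5, NEUROD6 and TAL2; 4.76%). With the quantification day as a random block 1 passed at 24 hr (MYF5; 5.46%), 3 at 48 hr (NEUROG1, NPAS2 and TCF12; 3.2%) and 5 in the F test (those 4 and NEUROD6; 9.13%). The cause was not tested.

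The median ratio of the members at 0 hr (-0.053) was -0.0988 with median centring, -0.0807 with signal medians, -0.0834 from the deposited matrix and from single arrays with the replicate as a random block, -0.0815 without the dimmest 30% and -0.0817 with suffixes unbalanced. Chosen after seeing the data, turning the contrary 0 hr array gave -0.0245, and leaving it out together with the 13 low arrays gave -0.0263. The 24 hr median was 0.0413 with suffix 5 arrays only. Without each replicate in turn the 0 hr median ran from -0.0596 to -0.0354. At 24 hr the range was -0.111 to 0.0378, and the 48 hr median lay between -0.184 and -0.0437. The 24 hr median changed sign without 24 hr replicate 1.

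Detection depended on the limit. At a share of 50% of channels 4 members were detected at all time points, with 10 at 0 hr, 5 at 24 hr and 13 at 48 hr, and of all gene probes 3.98%, 14.1%, 6.16% and 20.7%. At 100% these were 0, 1, 0 and 1 (0%, 0.729%, 0.398% and 0.861% of all). With the 99th percentile 3 were detected at 0 hr (1.79%) and 3 at 48 hr (1.59%). With local background plus 2 SD 2 were detected throughout (6.1%), 10 at 0 hr (16.6%) and 35 at 48 hr (59.1%). Replicate numbers were not treated as pairing the samples. Deviations of same-numbered samples correlated between -0.161 and 0.0645, and those of differently numbered samples between -0.11 and 0.204. Being taken from ratios, these correlations cannot show a pairing in signal that both RNAs of an array share. With the number as a replicate block 0 members passed and the medians stayed at -0.053, -0.0922 and -0.113.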
